A study of Macaca mulatta with 20 samples.

Results

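The scavenger receptor genes that mark monocytes and macrophages were followed in whole blood of rhesus macaques given X-rays to the chest. The 8 genes were CD163, MSR1, MRC1, MARCO, VSIG4, CD36, CD68 and STAB1, chosen by name, and every non-control probe that the array annotation assigns to one of them was taken, which gave 10 of the 34127 probes on the array. Male macaques of Chinese origin received 10 Gy to the whole thorax, and blood was drawn 3 days before (pre-irradiation) and on days 2, 5 and 30 after. Each group held 5 arrays, numbered replicates 1 to 5, and arrays of the same number were treated as a pair because the study paired its comparisons by animal. There was no unirradiated group followed over the same days, so time and irradiation cannot be told apart, and in 1 exception that the labels do not identify the RNA of 2 animals was pooled. The RNA was depleted of globin transcripts and hybridized to Agilent Whole Human Genome arrays, which carry human probes. In whole blood, fewer cells of a type and less RNA per cell cannot be told apart.

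Scavenger receptors are surface or lysosomal proteins with which phagocytes bind and take up modified lipoproteins, hemoglobin complexes, dying cells and microbes. Most are at their highest in tissue macrophages, while blood monocytes carry CD163, CD68 and CD36, and platelets carry CD36 as well. CD163 is induced in monocytes by glucocorticoids and by interleukin-10, and its shed form is used as a serum measure of macrophage activation.

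The probes are human sequences of 60 bases, so a value depends on how well the macaque transcript pairs with them, and levels of different probes were not compared as amounts of RNA. A summed level of a gene list therefore weighs its genes by probe signal. All 8 symbols occur in the rhesus RefSeq gene table, but the probes were not aligned to the macaque genome here. The first 30 bases of the probes of the genes whose values carry the results follow, 5′ to 3′ in lower case with no part marked. They are placed by the array annotation on human build hg19. The CD163 probe lies at chr12:7623882-7623941 (minus strand), the VSIG4 probe at chrX:65241686-65241745 (minus strand), the STAB1 probe at chr3:52557683-52557742 (plus strand), the CD68 probe at chr17:7484879-7484938 (plus strand) and the CD36 probe at chr7:80302711-80303343 (plus strand). The CD36 probe covers 633 bases of the genome with 60 bases, so it crosses a splice junction. Whether the other probes lie in coding exons or UTRs was not analysed here.
CD163: attcacctctctcactgactattacagttg
VSIG4: ctcagaggaccagctatatccaggatcatt
STAB1: gtggttagccgtatcattgtgtgggacatc
CD68: gggtacccttatttcctcgacacgcaactg
CD36: ctttggcttaatgagactgggaccattggt

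A level is the log2 processed signal of a probe minus the 75th percentile of its array, so that 0 is the level of the 75th percentile spot. Feature Extraction, the scanner software, marks a spot as well above background or not, and a probe was tested only when it was well above background on at least 5 of the 20 arrays. CD163 and CD68 were well above background on 20 arrays, VSIG4 on 17 and STAB1 on 5, and these 4 genes were tested. CD36 (4 arrays), the MSR1 probes (3, 1 and 0 arrays), MRC1 (1 array) and MARCO (1 array) were not. STAB1 therefore stood just inside the filter and CD36 just outside it. STAB1 reached the filter only through arrays after irradiation, so its levels are given as a description, and its fitted changes were not read as a difference from pre-irradiation.

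Before irradiation, 2 or 3 of the 8 genes were well above background on each array. On day 2 the number was 4, 2, 3, 3 and 7 for replicates 1 to 5, on day 5 it was 3, 4, 7, 4 and 5, and on day 30 it was 3, 4, 3, 3 and 3. The high counts lay on a few arrays, with replicate 5 of day 2 and replicate 3 of day 5 holding 7 genes each. Replicate 3 of day 5 also stood apart over all spots, with 67.3% well above background against 50.9% to 58.8% on the other 19 arrays. The lowest share, 50.9%, was on replicate 1 before irradiation. The part of these shares in the detection of the dim receptors was not tested.

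**Figure D1:**
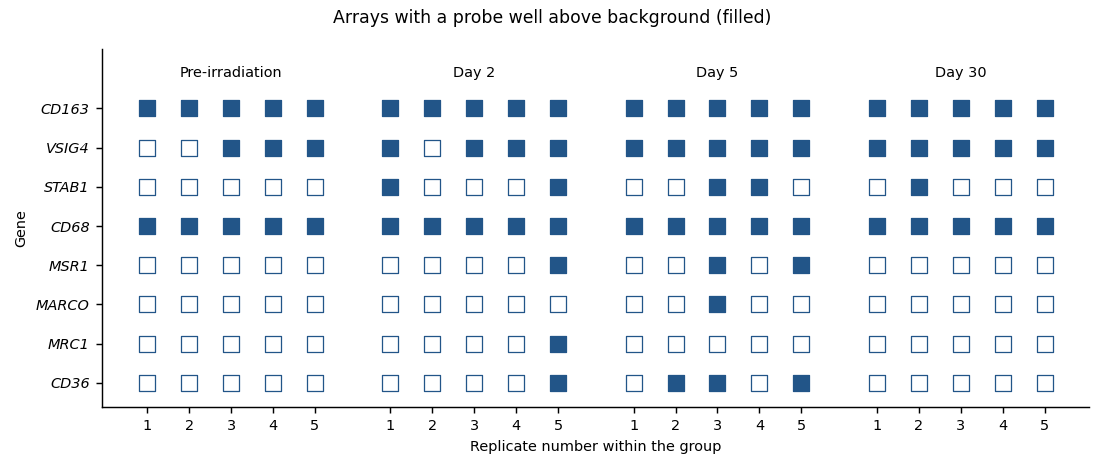
Squares show, for each gene (vertical axis) and each array (horizontal axis, replicate number within its group), whether at least 1 probe of the gene was well above background (filled) or not (open). CD163 and CD68 are filled on 20 arrays, and the dim receptors are filled mainly on replicate 5 of day 2 and replicate 3 of day 5.

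CD163, the receptor that takes up hemoglobin bound to haptoglobin, had higher mean levels on each day than before irradiation. Its levels before irradiation were 2.79, 3.58, 3.99, 2.46 and 3.56 (replicates 1 to 5). They were 4.30, 3.74, 4.34, 3.75 and 4.41 on day 2, 3.47, 3.67, 3.85, 2.69 and 4.73 on day 5, and 4.66, 3.92, 4.65, 3.75 and 4.23 on day 30. Replicates 1 and 4 were lowest before irradiation and moved most on days 2 and 30. All 3 days overlapped with pre-irradiation, days 2 and 30 only through the high level of replicate 3 before irradiation. The mean went from 3.28 ± 0.63 (SD, n = 5) before irradiation to 4.11 ± 0.34 on day 2, 3.68 ± 0.73 on day 5 and 4.24 ± 0.42 on day 30. The log2 change was 0.83 (SE 0.23) on day 2, or 1.78-fold, with a higher level in 5 of 5 pairs. On day 5 the log2 change was 0.41 (SE 0.21), higher in 4 of 5 pairs, and 0.22 without replicate 5. On day 30 it was 0.97 (SE 0.24), or 1.95-fold, higher in 5 of 5 pairs. With normexp background correction, another way to remove background, the day 2 change was 0.32, where the median of all probes was 0.16.

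As processed here, CD163 did not pass the threshold of the study, a p-value under 0.005 together with a Benjamini-Hochberg false discovery rate (FDR) under 10% over all tested probes. In limma with pairs as a block, its adjusted p was 0.204 on day 2, 0.518 on day 5 and 0.148 on day 30 (unadjusted p = 0.0069, 0.0933 and 0.0037). The exact sign-flip permutation test over the 5 pairs (two-sided) gave p = 0.0625 on days 2 and 30, which is the smallest p that 5 pairs allow, and p = 0.1875 on day 5. CD163 did pass on day 30 with normexp correction (log2 change 0.77, limma adjusted p = 0.0483) and in the deposited log2 values (1.01, adjusted p = 0.081). In both of these fits many other probes were called on day 30 as well, and their counts are given in the last section. With the main processing, 0.0601% of 19961 tested probes were called on day 2, 0% on day 5 and 0% on day 30. CD163, VSIG4 and CD68 were not called on any day with it. At an unadjusted p under 0.05, limma found CD163 and VSIG4 higher on days 2 and 30 and VSIG4 on day 5, among CD163, VSIG4 and CD68, against 8.47%, 7.35% and 7.43% of all tested probes. Being higher in every pair was found for 6.17%, 7.24% and 7.41% of tested probes.

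VSIG4, a complement receptor of resident macrophages that binds C3b-coated particles, differed more between replicate numbers than between days. Its levels before irradiation were -3.97, -4.28, -2.21, -4.06 and -3.06. They were -1.79, -4.45, -1.28, -2.20 and -0.71 on day 2, -2.12, -3.96, -1.998, -2.88 and -1.33 on day 5, and -1.97, -3.93, -1.74, -2.71 and -1.09 on day 30. Replicate 2 was lowest in all 4 groups, replicate 5 was highest on the 3 days after irradiation and replicate 3 was highest before it, and each day overlapped with pre-irradiation. Averaged over the 4 groups, the level ran from -4.15 in replicate 2 to -1.55 in replicate 5. The probe was well above background on 3 of 5 arrays before irradiation, on 4 on day 2 and on 5 on days 5 and 30, so replicates 1 and 2 before irradiation and replicate 2 on day 2 have only an upper bound.

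The mean level of VSIG4 was -3.52 ± 0.87 before irradiation, -2.09 ± 1.43 on day 2, -2.46 ± 1.004 on day 5 and -2.29 ± 1.08 on day 30 (SD, n = 5). Within pairs the log2 change was 1.43 (SE 0.36) on day 2. The level was higher in replicates 1, 3, 4 and 5. In replicate 2 it was not well above background on either array, so that the direction of this pair was not measured. The change was 1.06 (SE 0.28) on day 5 and 1.23 (SE 0.29) on day 30, higher in 5 of 5 pairs on both days. With normexp correction the changes were 0.86, 0.42 and 0.61. The limma adjusted p was 0.193, 0.319 and 0.141 (unadjusted p = 0.0044, 0.0059 and 0.0025), and the exact sign-flip p was 0.125, 0.0625 and 0.0625. These changes and tests take the levels that were not well above background at their measured values. When 1 replicate was left out, the day 2 change was between 1.20 and 1.83. Of these 5 fits, VSIG4 passed the threshold only in that at 1.83 (limma adjusted p = 0.0517), where the pair not well above background was left out. On day 30 it passed with normexp correction (adjusted p = 0.0544).

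STAB1, or stabilin-1, an endocytic receptor of alternatively activated macrophages and sinusoidal endothelium, was not well above background on any array before irradiation. Its levels were -5.39, -4.17, -5.54, -6.37 and -3.99 before irradiation and -3.15, -3.93, -4.55, -3.84 and -3.24 on day 2. They were -4.32, -5.24, -3.17, -3.40 and -4.17 on day 5, and -5.25, -3.74, -4.59, -5.06 and -4.37 on day 30. On day 2 only replicates 1 and 5 were well above background. On day 5 these were replicates 3 and 4, and on day 30 replicate 2, so no replicate was well above background on more than 1 day.

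CD68, a lysosomal glycoprotein used as a general stain for macrophages and also present in monocytes, overlapped between all groups. Before irradiation its levels were -0.88, -0.31, 0.85, -1.03 and 0.04, and on day 2 they were -0.0047, 0.86, 0.18, 0.00093 and 0.35. On day 5 they were -0.80, 0.92, 0.16, -1.40 and 0.73, and on day 30 -0.45, 0.61, 0.86, -0.12 and -0.47. Replicate 3 was lower on days 2 and 5 than before irradiation, replicate 4 on day 5 and replicate 5 on day 30. The log2 change was 0.54 (SE 0.28) on day 2, 0.19 (SE 0.28) on day 5 and 0.35 (SE 0.24) on day 30, with limma adjusted p of 0.398, 0.829 and 0.481. The day 5 change was -0.075 without replicate 2. Over all settings tried, the changes ran from 0.36 to 0.85 on day 2, from -0.075 to 0.41 on day 5 and from 0.21 to 0.57 on day 30.

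**Figure D2:**
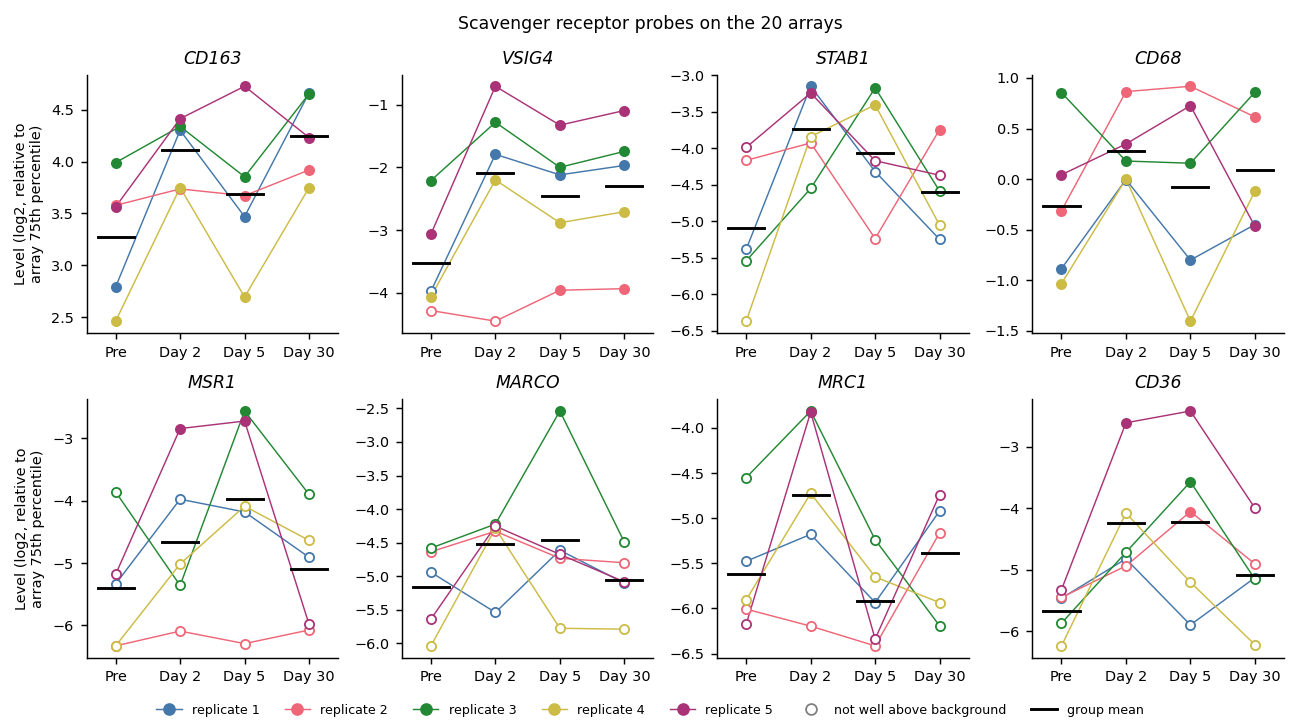
Levels (vertical axis, log2 relative to the array's 75th percentile) of 1 probe per gene (A_33_P3379326 for MSR1) in the 4 groups (horizontal axis), with 1 line per replicate number, filled points for arrays well above background, open points for the others and a black bar for the group mean. VSIG4 of replicate 2 lies lowest in every group, and the lower panels show mostly open points.

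**Figure D3:**
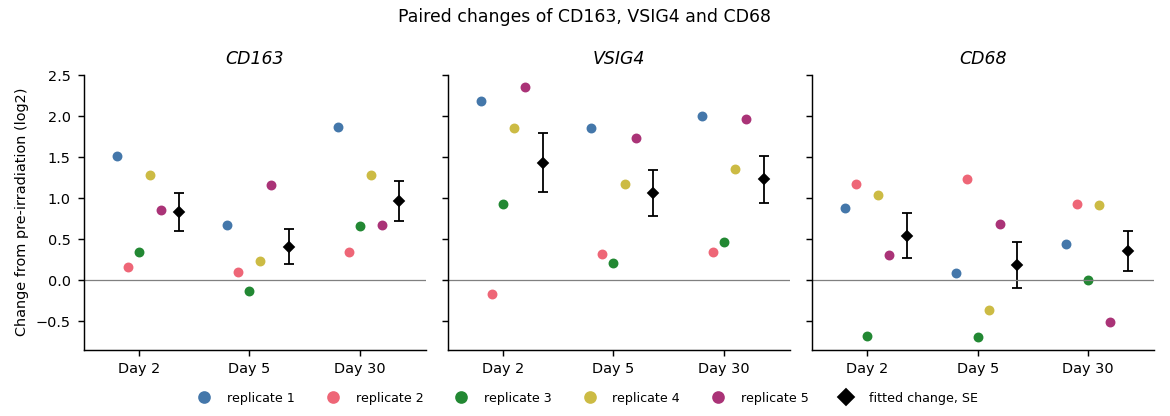
Change from pre-irradiation of each pair (points, log2) for CD163, VSIG4 and CD68 on days 2, 5 and 30 (horizontal axis), with the limma change and its SE as a black diamond. CD163 is above 0 in 5 of 5 pairs on days 2 and 30, while CD68 has points on both sides of 0 on all 3 days.

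The class A receptors MSR1 and MARCO, which bind modified lipoproteins and bacteria, gave few values well above background. Of the 3 MSR1 probes, A_33_P3379326 was well above background on replicate 5 of day 2 (-2.84) and on replicates 3 and 5 of day 5 (-2.56 and -2.72), and on no array before irradiation or on day 30. Its levels before irradiation were -5.34, -6.33, -3.86, -6.33 and -5.18. The second MSR1 probe (A_24_P372223) was well above background only on replicate 3 of day 5, and the last (A_23_P392942) on none, so the 3 probes did not give 1 pattern.

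MARCO was well above background only on replicate 3 of day 5, the array that stood apart, where its level was -2.54 against -5.78 to -4.61 on the other day 5 arrays. MRC1, the mannose receptor CD206 of tissue macrophages and dendritic cells, was well above background only on replicate 5 of day 2, at -3.82. Replicate 3 of day 2 had nearly the same MRC1 level, -3.81, and was not marked, so a single array near the limit carries no difference between groups.

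CD36, the class B receptor for oxidized lipoproteins and fatty acids, was well above background on 4 arrays, all after irradiation. Its levels before irradiation were -5.46, -5.45, -5.87, -6.24 and -5.33, and on day 2 they were -4.82, -4.94, -4.72, -4.08 and -2.61. Only replicate 5 was well above background on day 2, so the direction was not measured in the other 4 pairs. On day 5 the levels were -5.90, -4.05, -3.57, -5.20 and -2.42, with replicates 2, 3 and 5 well above background, and on day 30 they were -5.13, -4.91, -5.15, -6.22 and -4.00 with none. Since the level before irradiation was not well above background on any of the 5 arrays, no fold or test is given for CD36.

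In direct comparisons between days, CD163, VSIG4 and CD68 were not called, against 0% of all probes on day 5 versus day 2, 0.0501% on day 30 versus day 2 and 0% on day 30 versus day 5. CD163 was lower on day 5 than on day 2 by a log2 change of -0.43 (SE 0.23), which turned to 0.079 with normexp correction, and higher on day 30 than on day 5 by 0.56 (SE 0.27), with adjusted p of 0.972 and 0.601. Ordered by mean level, all 3 genes were lowest before irradiation, followed by day 5. CD163 was then highest on day 30, and VSIG4 and CD68 on day 2, and no neighbouring groups in these orders passed the threshold. The 5 pre-irradiation arrays served all 3 days, so the changes of the days are not independent of each other.

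On each slide there was 1 array of every group, always at the same position, so slide position and group cannot be told apart. Most same-numbered arrays were on different slides. The exceptions were replicate 2 of pre-irradiation and day 5, replicate 3 of days 2 and 30 and replicate 5 of days 5 and 30. Within slides, CD163 was higher than pre-irradiation on 4 of 5 slides on day 2, on 3 on day 5 and on 5 on day 30. For VSIG4 these numbers were 4, 4 and 5. With the slide as a random block beside the replicate block, CD163 and VSIG4 passed the threshold on day 2 (limma adjusted p = 0.0582 and 0.0389) and VSIG4 on day 5 (0.0744). In that fit 1541 probes were called on day 2, against 12 without the slide.

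The genes with the profile most like each receptor were found over the 20 arrays, after subtracting each probe's mean within each replicate number, by the root mean square (RMS) difference in log2 units. For CD163 they were NOD2, an intracellular sensor of bacterial peptidoglycan in monocytes, at 0.19, LAMC1 at 0.23 and NOTCH2 at 0.23, where the median over all probes was 0.60. NOD2 had log2 changes of 0.85, 0.52 and 0.91 on days 2, 5 and 30. For VSIG4 the nearest were SLC31A2 (0.33), IDO1 (0.34), which degrades tryptophan, and CD300A (0.35), an inhibitory receptor of myeloid cells. For CD68 they were FCN1 (0.25), a monocyte ficolin, CLEC7A (0.26), the beta-glucan receptor dectin-1, and EPB41L3 (0.27). For STAB1 the nearest, MFSD2B, ST8SIA5 and LAMB2, lay at 0.43, 0.44 and 0.48. STAB1 itself varied by 0.82 and was not well above background on 15 of the 20 arrays. These are descriptions of the smallest of 17622 differences, and the arrays that share an animal number are not independent.

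Other genes of the same pathways were taken from lists, with 1 tested probe per gene. On day 2, 14 of 17 other scavenger receptor genes had a higher level than before irradiation, with a median log2 change of 0.31 where that of all tested probes was -0.04. On day 5 it was 12 of 17 and on day 30 9 of 17, and the shares of all tested probes with a higher level were 44.9%, 54.7% and 47.4% on the 3 days. On days 5 and 30 the medians were 0.22 and 0.17, with all probes at 0.03 and -0.02. Median scaling moved the day 5 median to 0.10 and that of all probes to -0.09. None passed the threshold. CLEC7A had an unadjusted p under 0.005 on day 2 (log2 change 0.99, limma adjusted p = 0.131) and on day 30 (0.80, adjusted p = 0.127), higher in 5 of 5 pairs on both days. Another probe of CLEC7A, the one that resembled CD68, had a change of 0.49 on day 2, so its probes disagreed in size.

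Among 14 tested genes of hemoglobin, heme and iron clearance, the path downstream of CD163, the medians were 0.28, 0.32 and 0.34 on days 2, 5 and 30 and 0 were called. The day 2 median turned to -0.088 with normexp correction, which moved that of all probes from -0.04 to 0.16, and the day 30 median to 0.19. The day 5 median was 0.20 with quantile normalization or median scaling. SLC40A1, the iron exporter ferroportin, had a log2 change of 1.16 on day 2 (limma adjusted p = 0.138), and SLC11A1, the phagosomal metal transporter NRAMP1, had 1.03 on day 5 (adjusted p = 0.279). In the 14 tested genes of lipid uptake, which work with CD36, the medians were 0.51 (0.24 with normexp correction), 0.17 (0.052 with median scaling) and 0.31. Of these genes, 8 had a higher and 6 a lower level on day 2, and 9 were higher on day 5 and 11 on day 30. LPL, lipoprotein lipase, rose on day 2 by 1.31 (SE 0.16, limma adjusted p = 0.0965, higher in 5 of 5 pairs) and was the 1 gene of this list called, where 0.0601% of all tested probes were called and 44.9% had a higher level. This call was lost with quantile normalization, normexp correction (log2 change 0.95), no filter on dim probes, no replicate block and the probe-wise paired test. It was also lost without replicate 1, 3, 4 or 5. ABCA1, which exports cholesterol, had log2 changes of 1.18, 0.79 and 1.10 on the 3 days, with adjusted p of 0.166, 0.279 and 0.126.

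For clearance of apoptotic cells, the medians were 0.33, 0.21 and 0.10 over 16 tested genes, and 0 were called. The day 5 median was 0.041 with quantile normalization and 0.086 with median scaling, and the day 30 median was 0.25 with normexp correction. ITGB3 and ITGB5, integrin chains that bind bridging proteins on dying cells, had log2 changes of 1.94 and 1.54 on day 2 (limma adjusted p = 0.157 and 0.145), and ITGB3 is also a platelet gene. The 16 tested lysosome genes had medians of 0.32, 0.21 and 0.31, with 0 called. With normexp correction the day 2 median was 0.025, below the 0.16 of all probes, and that of day 30 was 0.20. With median scaling the day 5 median was 0.088. Cathepsin B (CTSB) had 0.84 on day 2 and 0.96 on day 30 (adjusted p = 0.188 and 0.147).

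Of 12 tested macrophage genes, 3 were called on day 2, all higher, and 11 had a higher level than before irradiation. These were C1QA, C1QC and C1QB, the chains of complement C1q, with log2 changes of 2.91, 2.88 and 2.51 (limma adjusted p = 0.0639 for each), where 0.0601% of all tested probes were called and 44.9% had a higher level. With normexp correction the log2 changes of C1QA, C1QC and C1QB were 1.57, 0.93 and 1.76, where the median of all probes was 0.16. The 3 calls were lost with quantile normalization, normexp correction, no filter, no replicate block and the probe-wise test. They were also lost without replicate 1, 4 or 5, and that of C1QA without replicate 3 as well. The medians of the list were 0.88 (0.54 with normexp correction), 0.39 and 0.27 on days 2, 5 and 30. SIGLEC1, TREM2, APOC1 and ADAMDEC1 of this list were not well above background on enough arrays to be tested, as was the case for MSR1, MRC1 and MARCO.

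Marker genes of other blood cells were followed in the same way. Their list medians went both ways, and KLRB1 was the only gene of these lists to pass the threshold against pre-irradiation. The summed level of the 14 tested monocyte genes, on the linear scale relative to the array's 75th percentile, was 202, 168, 318, 110 and 215 before irradiation. It was 344, 247, 384, 215 and 294 on day 2, 301, 260, 291, 119 and 317 on day 5, and 417, 276, 327, 217 and 255 on day 30. Their sum was thus higher in 5, 4 and 5 of 5 pairs, with replicate 3 lower on day 5. CD163 had the same counts and the same exception, while VSIG4 was higher in 4, 5 and 5 pairs and CD68 in 4, 3 and 4. The CD14 probe gave the largest signal in this sum, and LYZ and CTSS had no tested probe. The monocyte medians were 0.61, 0.38 and 0.57 on the 3 days, with FCGR3A at 0.69 on day 2 (limma adjusted p = 0.195) and 0 called. With normexp correction the day 2 median was 0.18, beside 0.16 for all probes. The part of monocyte RNA in the values of CD163, VSIG4 and CD68 was not tested.

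Platelet genes, of interest because platelets carry CD36, had the largest median of the lists on day 2, 1.45 over 14 tested genes (0.93 with normexp correction), and then 0.41 and -0.02, the last of which turned to 0.02 with quantile normalization and 0.04 with median scaling. Their summed level, in which the PF4 probe gave the largest signal, was 147, 124, 41.3, 151 and 131 before irradiation and 575, 159, 152, 381 and 402 on day 2. It was 191, 141, 90.1, 233 and 150 on day 5 and 115, 106, 72.6, 114 and 83.8 on day 30. On day 2, 12 of the 14 had an unadjusted limma p under 0.005, all higher, but 0 passed the FDR limit. This compares with 1.9% of all tested probes. ITGB3, TUBB1, SELP and PPBP had the largest changes of the 12, at 1.94, 1.69, 1.65 and 1.55 on the log2 scale, and GP1BA, GP5, GP6 and MMRN1 were not tested. The part of platelet RNA in CD36 was not tested.

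The medians of 13 neutrophil genes were 0.94 (0.48 with normexp correction), 0.64 and 0.95 (0.63 with it), those of 21 T and NK cell genes -0.65, -0.37 and -0.31, and those of 12 B cell genes -0.56, -0.55 and -0.49. CSF3R, the receptor for granulocyte colony-stimulating factor, had a log2 change of 0.997 on day 2 (limma adjusted p = 0.148). KLRB1, the NK cell receptor CD161, fell by 1.67 on day 2 (limma adjusted p = 0.0965) and was the 1 gene of these 3 lists called against pre-irradiation, where 0.0601% of all tested probes were called. The call was lost under the same settings as that of LPL, and with normexp correction the log2 change was -0.82. Erythroid genes had medians of -0.11 (-0.50 with normexp correction), 0.18 (0.054 with quantile normalization and 0.062 with median scaling) and -0.61 and 0 called, with the HBB probe giving the largest signal in their sum. Of the 12 endothelial genes, which were included because STAB1 is also endothelial, 7 were tested, with medians of 0.30, 0.40 and -0.04 (0.48, 0.19 and 0.022 with normexp correction, and 0.021 on day 30 with median scaling), and STAB2, LYVE1, KDR, ERG and EMCN were not well above background on enough arrays. VWF, which platelets also carry, had 1.42 on day 2 (limma adjusted p = 0.131).

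Genes that respond to glucocorticoids, which raise CD163 in monocytes, had medians of 0.70 (0.35 with normexp correction), 0.15 (0.033 with median scaling) and 0.36 over 12 tested genes and 0 called. IL1R2, the decoy receptor for interleukin-1, had a log2 change of 1.41 on day 2 (limma adjusted p = 0.148) and 1.04 on day 5 (0.279), higher in 5 of 5 pairs on both days. All 12 of these genes had a higher level than before irradiation on days 2 and 30 and 10 on day 5, against 44.9%, 47.4% and 54.7% of all tested probes. The study states that no steroids were given as treatment, and the part of endogenous steroids in CD163 was not tested.

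**Figure D4:**
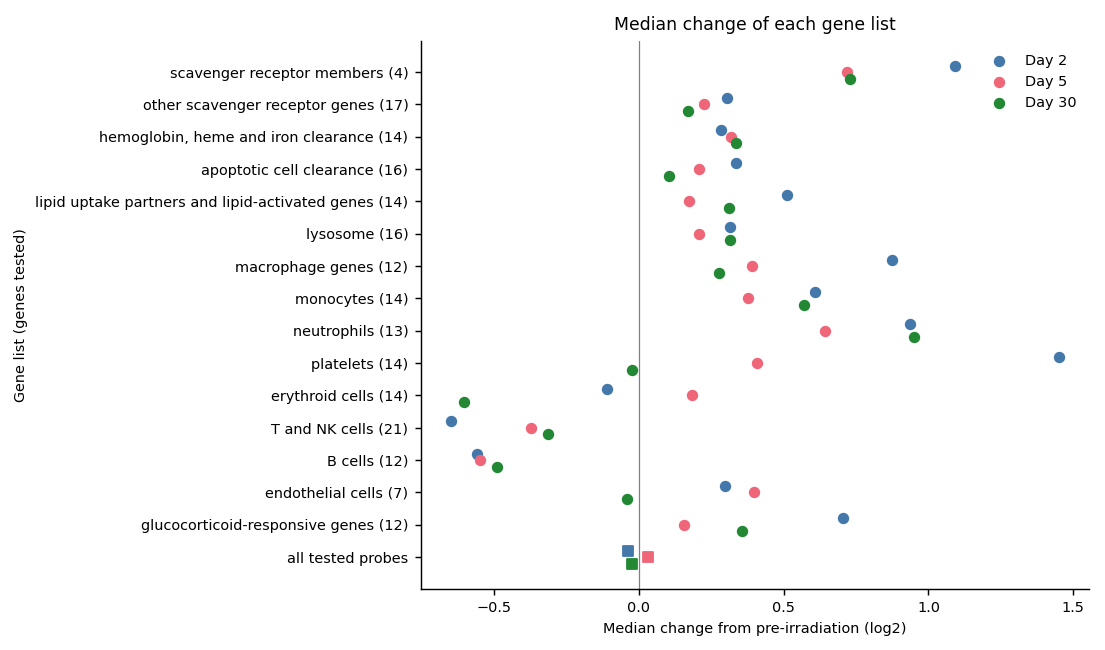
Median log2 change from pre-irradiation (horizontal axis) of each gene list (vertical axis, number of tested genes in brackets) on days 2, 5 and 30, with all tested probes as squares at the bottom. Platelet genes have the highest median on day 2, at 1.45, and the T, NK and B cell lists lie below 0 on all 3 days. The points of the 4 tested scavenger receptor members include STAB1, whose changes were not read as a difference from pre-irradiation.

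**Figure D5:**
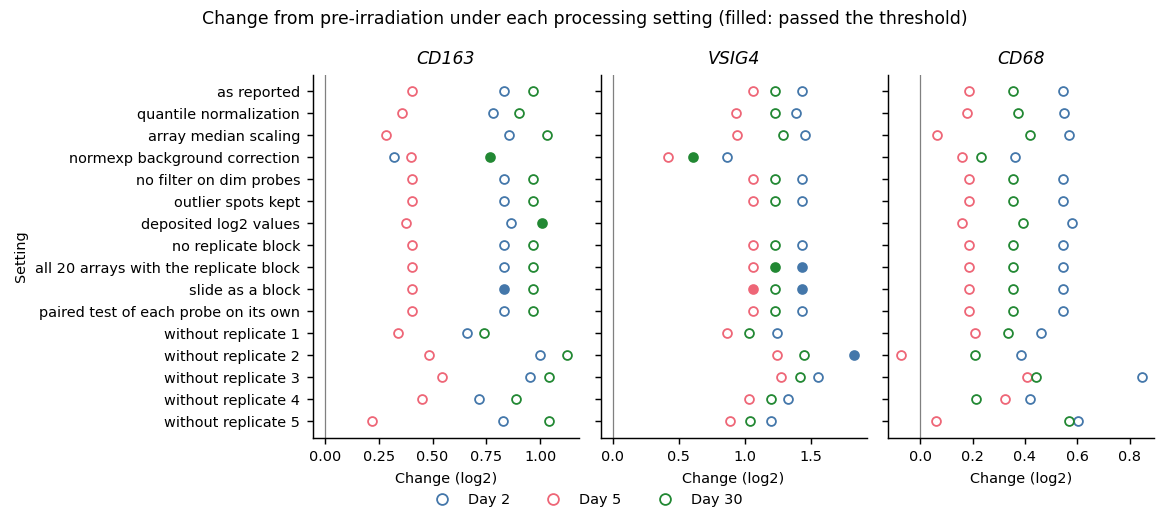
Log2 change from pre-irradiation (horizontal axis) of CD163, VSIG4 and CD68 on days 2, 5 and 30 under each processing setting (vertical axis), filled where the gene passed the threshold. VSIG4 and CD163 stay above 0 under every setting shown, while CD68 on day 5 falls to -0.075 without replicate 2.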

How the data were processed

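The 20 arrays were one-color Agilent Whole Human Genome arrays of whole blood RNA. The authors deposited 1 scanner file per array from Agilent Feature Extraction (12.0.2.2 by the file headers, 10.7 by the submitters' processing notes). Per the file headers, its processed signal is a background-subtracted intensity, which the authors deposited without normalization between arrays. They also deposited a table of filtered log2 values, used here as an alternative.

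The log2 processed signal was taken without control and outlier spots, the 75th percentile of all non-control spots of the array was subtracted, and spots of a probe were averaged. Of 34127 probes, 19961 had a signal well above background on 5 or more arrays and entered limma 3.58.1 (R 4.3.3), which needed 4 of 5 pairs and took the pair as a block. The call rule was a p-value under 0.005 with an FDR under 10%. Arrays of 1 number were paired because the study paired by animal. Deviations from the group means correlated within pairs by 0.29, 0.37 and 0.23 on average on days 2, 5 and 30 against pre-irradiation. The lowest pairs were at 0.17, 0.12 and 0.04, and only 3 of 5 pairs were over 0.1 on day 30. Day 30 against day 2 held a pair at -0.16.

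The receptors, gene lists and tests were chosen with earlier results of these data known. The text names the receptors, the 3 most similar genes of each tested receptor, and from each list at most 4 genes with an unadjusted p under 0.005. FDR values are over all tested probes. The fit was tested on simulated data for day 2 against pre-irradiation. It recovered 84% of 100 log2 changes of 2 and 99% of 100 changes of 4. Both sizes were simulated together, and 28 false calls were made in that run as a whole. Changes as small as those of the receptors were not simulated. The number of arrays limits the precision. Python 3.11.15, pandas 2.3.3 and matplotlib 3.10.9 were used for tables and plots.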

Additional observations from a re-analysis of the deposited data

Results flagged for a closer look

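Among 74 sets of 5 values examined for a single value far from the rest, 4 held one, and chance gives about 1 in 20. MSR1 (A_24_P372223) reached -3.24 in replicate 3 of day 5, well apart from the other day 5 arrays. For the same probe, the change from pre-irradiation to day 2 was lowest in replicate 1, at -1.53, but neither array of this pair was well above background, so the change was not measured. MARCO was lowest in replicate 1 of day 2, at -5.54, where none of the day 2 arrays was well above background. The share of spots well above background was 67.3% in replicate 3 of day 5, the array that also held the high MSR1 and MARCO values.

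Receptors that were too dim to be tested gave signals on some irradiated arrays and on 0 of 5 arrays before irradiation. Irradiated arrays were the larger group, with 5 on each of 3 days. The share of all dim probes with this pattern was not counted, so the pattern is not read as particular to the receptors. CD36 was well above background on 4 irradiated arrays, MSR1 A_33_P3379326 on 3, MSR1 A_24_P372223 on 1, MRC1 on 1 and MARCO on 1. The differences between groups in these numbers were not tested.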

How the results depend on the processing

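The 4 tested receptors had 174 alternative values against pre-irradiation. Those of STAB1 are among them as a description only and are not counted in support of a difference. Of the 174, 162 kept their direction and stayed short of the threshold, 11 passed it and 1 reversed. The reversal was CD68 on day 5 without replicate 2 (-0.075, with 0.41 the highest value when another replicate was left out). Between days, 3 reversed and 0 passed the threshold: CD163 on day 5 against day 2 (0.079) and STAB1 on day 30 against day 5 (0.20) with normexp background correction, and CD68 on day 30 against day 5 without replicate 4 (-0.11, with 0.51 the highest value when another was left out). The causes were not tested.

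Receptors passing the threshold numbered 3 on day 2 and 1 on day 5 with the slide as a block, 1 on day 2 and 1 on day 30 with all 20 arrays in 1 fit, 2 on day 30 with normexp correction, 1 on day 30 with the deposited log2 values, and 0 to 2 on day 2 with each replicate left out. These numbers include STAB1 (day 2, slide block and without replicate 2), which entered the test only through arrays after irradiation and is not counted in support of a difference. The receptors that passed on day 30 were CD163 and VSIG4 with normexp correction, CD163 with the deposited values and VSIG4 with all 20 arrays. Normexp correction brought CD163 on day 2 to 0.32 and VSIG4 to 0.86. It moved the median of all probes to 0.16 on day 2 and 0.10 on day 30, and the deposited values moved it to 0.12 on both days.

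Over all probes, 12 were called on day 2, 0 on days 5 and 30, and 10 on day 30 against day 2. Day 2 gave 0 with quantile normalization, normexp correction, no filter on dim probes and a paired t-test of each probe on its own (the probe-wise test). It gave 327 with the deposited values, 343 with all 20 arrays and 1541 with the slide block. The study used the class comparison tool of BRB Array Tools, which was not run here, so these counts do not repeat its test. Day 5 gave 1026 with the slide block and 1 with the probe-wise test, and day 30 gave 952 with normexp correction, 334 with the deposited values, 121 with all 20 arrays, 195 with the slide block and 1 with the probe-wise test. Day 30 against day 2 gave 6 with normexp correction, 0 with no filter, the slide block or the probe-wise test, 57 with the deposited values and 164 with all 20 arrays. Without the replicate block, that is without pairing, 0 probes were called on day 2 and 4 on day 30 against day 2, and 0 receptors passed on any day. Leaving out each replicate gave 0 to 588 on day 2 (588 without replicate 2, 3 without replicate 3 and 0 without replicate 1, 4 or 5), 0 to 66 on day 30 against day 2 (66 without replicate 2, otherwise 0) and 0 to 2 on day 30 against day 5 (2 without replicate 5). VSIG4 and STAB1 were not in the deposited table.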
